A study of Mus musculus with 24 samples.

Results

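Cytosolic ribosomal proteins are the protein part of the ribosome that translates nuclear-encoded mRNAs, named Rpl in the large subunit and Rps in the small one. Their genes were taken here by symbol: Rpl or Rps and a number, with an optional letter or l, plus the stalk proteins Rplp0, Rplp1 and Rplp2 and the laminin receptor Rpsa, without the S6 kinases and without pseudogenes named as such. A gene counted when the array held a probe set that the platform annotation assigned to it alone. Whether the probes of such a set also match other transcripts was not tested. This gave 44 genes of the 15427 with a probe set of their own, 23 of the large and 21 of the small subunit, read by 95 probe sets. The symbols chose the members and no measured value did. Of the 82 coding genes in the mouse RefSeq annotation whose symbol fits the rule, 39 had no probe set of their own, and 30 of those lay only on probe sets shared with other genes. Rplp1, Rpl3, Rpl5, Rpl10, Rpl24, Rpl36a and Rpl36al are among these 30 and are not described. Rps4l fits the rule by its symbol but is annotated as a transcribed pseudogene.

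RNA of mouse small intestine, colonic polyps and colon was hybridised to 24 Affymetrix MOE430_2 arrays in 8 groups of 3. The Apcfl/fl groups were small intestine of AhCre-positive mice homozygous for a floxed Apc allele, taken 3, 4 or 5 days after 3 injections of 80 mg/kg beta-naphthoflavone in 1 day. The wild-type groups were small intestine of AhCre-positive mice with wild-type Apc after the same injections, at the same days. The Cre is driven by the Cyp1a1 promoter, which the drug induces in intestinal epithelium and also in other organs such as the liver. The 2 remaining groups were from ApcMin mice, which carry 1 truncated germline Apc allele: polyps pooled from the colon of 1 mouse per array, and colon labelled as normal mucosa. The labels call the colonic samples untreated, except for polyp replicate 1, whose treatment they do not state. No ages are given here. The day 4 Apcfl/fl arrays carry only replicate numbers, so their labels do not show that they came from separate animals, while all other arrays carry identifiers of their own. Where arrays were not of separate animals, p-values measure only the spread between these arrays. Values are signals scaled so that the geometric mean of every array is 100. Differences are on the scale log2(signal + 16), which understates changes of dim probe sets, and p-values are from limma over 35066 probe sets after Benjamini-Hochberg adjustment, with 0.05 as the threshold.

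Cells make ribosomal proteins in near-equal numbers and degrade the unassembled surplus, so their mRNAs are usually regulated as 1 group. Their transcripts are known as TOP mRNAs: they begin with a C followed by a run of pyrimidines, through which mTORC1 and the binding protein Larp1 set how much of each mRNA is translated. Myc raises ribosome production at several steps, including rRNA synthesis and ribosomal protein genes. In the intestine Myc is a Wnt target, and loss of Apc, which removes the brake on Wnt signalling, expands proliferating crypt-like epithelium. A surplus of free Rpl5 and Rpl11 binds Mdm2 and stabilises p53.

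The sequences that define a TOP mRNA could be read at the annotated start of 38 of the 44 genes, from RefSeq windows of 300 bases on GRCm38.p6. An unbroken run of at least 5 C or T that starts with C within 10 bases of the start, read on the transcribed strand, was present for 25 of these 38 genes, or 65.8%, against 33.3% of all 27025 genes with a window. The motif CACGTG, which reads the same on both strands and is bound by Myc with Max and by other factors, was present within the window for 4 of the 38, or 10.5%, against 8.09% of all genes. A match is only a description of these letters. The 30 bases around the start, 15 on each side, are shown for genes on which the results below turn, with that pyrimidine run in capitals where there is one.
Rps6, chr4:86857353-86857382, minus strand: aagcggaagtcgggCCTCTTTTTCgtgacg
Rpl12, chr2:32961697-32961726, plus strand: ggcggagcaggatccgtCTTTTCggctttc
Rpl14, chr9:120571502-120571531, plus strand: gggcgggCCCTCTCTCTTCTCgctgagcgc
Rps18, chr17:33955651-33955680, minus strand: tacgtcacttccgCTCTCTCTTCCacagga
Rpl39, chrX:37085208-37085237, minus strand: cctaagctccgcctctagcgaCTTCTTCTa
Rpsa, chr9:120127751-120127780, plus strand: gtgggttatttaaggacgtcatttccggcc
The runs of Rps6, Rpl14 and Rps18 span the annotated start. That of Rpl12 opens just after it and that of Rpl39 further into the transcript, while Rpsa holds none in this window, although its transcript is known as a TOP mRNA.

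Several features of the arrays bear on the family and are given first. The spread of all probe sets of an array, as an SD on the log2 scale, ran from 1.87 to 2.38. At day 4 it was 2.26 to 2.34 in the Apcfl/fl and 2.00 to 2.18 in the wild-type arrays, and at day 5 it was 2.22 to 2.38 and 1.96 to 2.10, with no overlap on either day. Ribosomal protein probe sets are bright, 35 of the 44 lying in the brightest 10% of all probe sets, so a wider spread comes with higher values for them. The deposited values had been divided by that spread. Results are therefore given on the geometric mean scaling, which keeps it, and beside it on the standardized values, which remove it, and after quantile normalization. The signal of Apc was not called lower in Apcfl/fl on any day and at day 5 was higher in Apcfl/fl by 0.62 (adjusted p = 0.028), and where its probe set lies relative to the deleted part was not known, so it checks nothing. The stem cell genes, which include the Wnt targets Axin2 and Lgr5, were higher in Apcfl/fl for 6 of 6 on each day, and at day 5 for 5 of 6 after quantile normalization and 4 of 6 on the standardized values. The summed signal of 4 exocrine pancreas genes was 30502 in Apcfl/fl day 4 replicate 2 and 24695 in wild-type day 5 replicate 3, against 97.0 to 521 in the other 22 arrays. The part of this carry-over, and of the spread, in the results below was not tested.

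The family's level in each array was first compared by the median signal of the 44 genes. At day 3 it was 6139, 6329 and 7214 in Apcfl/fl and 3991, 5720.0 and 5194 in wild-type mice, so that the lowest Apcfl/fl array lay above the highest wild-type one. At day 4 the values were 6659, 6886 and 7819 against 5038, 4580.2 and 5563. At day 5 they were 6212, 8293 and 7634 against 3681, 4687 and 4181. The groups did not overlap on any of the 3 days on this scaling. In the colon the order was the other way and the groups overlapped, with 4804, 3811 and 5938 in polyps and 6818, 5954 and 4513 in normal colon. As a share of all summed signal, all 95 probe sets of the 44 genes together took 3.33 to 3.97% in the 9 Apcfl/fl arrays. In the 9 wild-type arrays they took 2.64 to 3.42%.

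**Figure D1:**
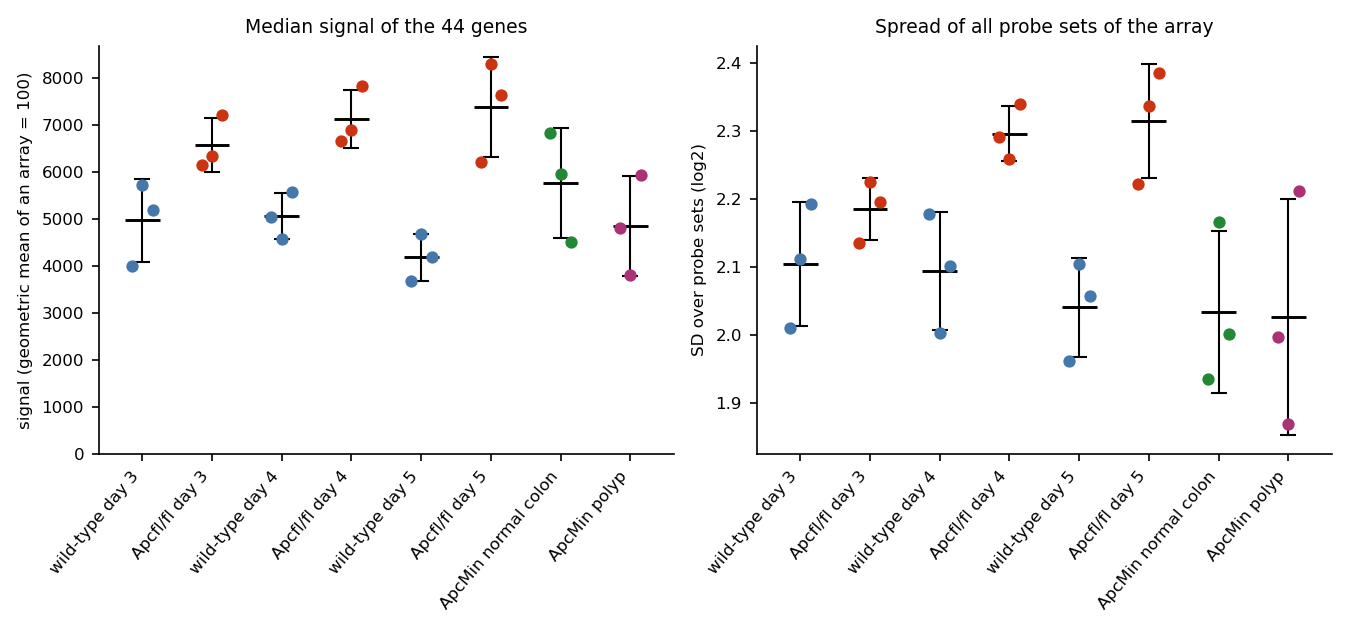
Left, median signal of the 44 ribosomal protein genes in each array (points), with group mean and SD (bars), on the geometric mean scaling. Right, SD of all probe sets of the same arrays on the log2 scale; both measures were higher in the Apcfl/fl than in the wild-type arrays without overlap at days 4 and 5, and on the standardized values the genes' median difference at day 4 was -0.05.

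At day 3 after induction, 6 of the 44 genes were called higher in Apcfl/fl and 0 lower, against 9.79% of all probe sets called higher and 7.33% lower, with a median log2 difference of 0.37. The 6 were Rpl4, Rpl6, Rpl12, Rpl27a, Rps9 and Rps14, of which Rpl27a falls outside the rule for named genes and was named after its values were seen. When only the 6 arrays of a day were fitted, 0 genes were called at day 3, 22 at day 4 and 29 at day 5. The shares of all probe sets called in those smaller fits are not given here, so these counts cannot be set against them. At day 4, 9 were called higher and 0 lower, against 12.5% and 8.73% of all probe sets, with a median of 0.48. At day 5, 36 were called higher and 0 lower, against 17.9% and 11.6%, with a median of 0.72. At an unadjusted p under 0.05, 17, 23 and 38 were higher on the 3 days and 2, 0 and 0 lower. The median over all probe sets was within 0.02 of 0 on each day, and that over the brightest 10% was 0.24, 0.24 and 0.37. Of the probe sets in the brightest 10%, 17.4%, 20.4% and 35.2% were called higher on days 3, 4 and 5. On day 3 only 17 of the 44 genes had all 3 Apcfl/fl arrays above all 3 wild-type arrays, against 16.3% of all probe sets, and on days 4 and 5 it was 37 of 44 each, against 27.4% and 23.7%. On this scaling day 5 had the most genes called, whereas under both other scalings it had the fewest. No gene's day 5 difference was called apart from its day 3 or day 4 difference, with 0 of 44 called in each of the 3 tests between days, against 0.707%, 0.02% and 0.0285% of all probe sets called for day 5 against day 3, day 5 against day 4 and day 4 against day 3. At an unadjusted p under 0.05 the count for day 5 against day 3 was 3 higher and 0 lower. Between the wild-type groups of different days 0 of 44 were called as well, against 5.02%, 3.67% and 0.328% of all probe sets for day 4 against 3, day 5 against 3 and day 5 against 4, with 2, 2 and 1 at an unadjusted p under 0.05. The wild-type level itself was lower at day 5, with a median difference of -0.22 from day 3 and 35 of the 44 genes below 0, and of -0.25 from day 4 and 36 below 0. These medians were 0.08 and 0.08 after quantile normalization.

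The size of the family's difference on these days depended on the scaling of the arrays, and at day 4 the sign of its median did as well. After quantile normalization the medians were 0.19, 0.32 and 0.26 on days 3, 4 and 5, with 6, 7 and 4 genes called higher and Rpl39 called lower at days 3 and 5, against 9.48%, 9.41% and 13.4% of all probe sets called higher. On the standardized values they were 0.16, -0.05 and 0.06, with 4, 3 and 2 called higher and 0 lower, against 9.68%, 9.76% and 13.7% of all probe sets higher, and at day 4 25 of the 44 genes lay below 0. The share of the 44 genes called at day 5 was below that of all probe sets under both of these scalings. The day 5 count thus fell from 36 to 4 or 2. Called at day 4 under each of the scalings were Rpl12, Rpl14 and Rps6, and called at day 5 under the standardized values were Rpl12 and Rps6. Single arrays also mattered. The day 4 count was 2 to 12 when 1 array was left out, being 4 without Apcfl/fl day 4 replicate 1 or 2 or without wild-type day 4 replicate 1, 3 without Apcfl/fl day 4 replicate 3 and 2 without wild-type day 4 replicate 2. The day 3 count fell to 2 without Apcfl/fl day 3 replicate 3 and to 3 without wild-type day 3 replicate 1. At day 5 the count fell to 18 without wild-type day 5 replicate 1 and to 21 without Apcfl/fl day 5 replicate 2, and was 28 without wild-type day 5 replicate 3, 1 of the arrays with pancreatic signal.

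**Figure D2:**
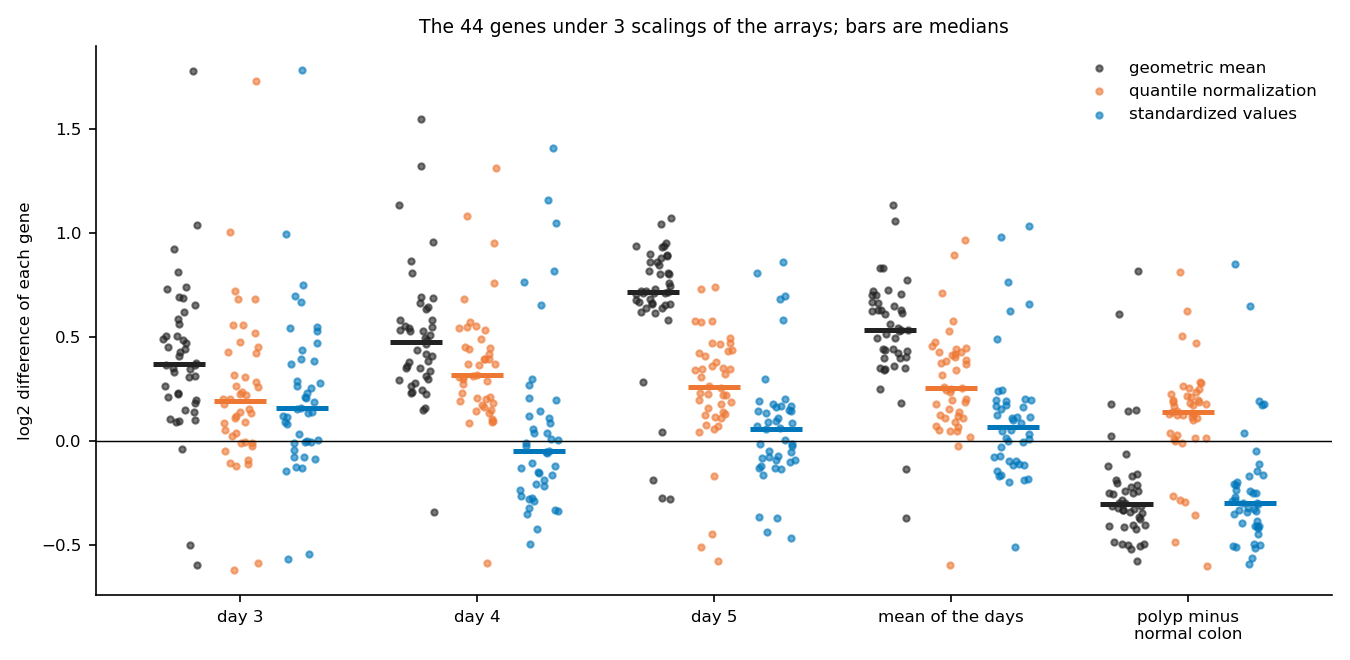
Log2 difference of each of the 44 genes (points; bars are medians), Apcfl/fl minus wild-type on each day and on average, and polyp minus normal colon, under 3 scalings of the arrays. At day 5 the median was 0.72 on the geometric mean scaling, 0.26 after quantile normalization and 0.06 on the standardized values, and in polyps it was -0.30, 0.14 and -0.30.

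Averaged over the 3 days, which uses all 18 small intestinal arrays, 39 of the 44 genes were called higher and 1, Rpl39, lower, against 26.2% and 22.8% of all probe sets, with a median of 0.53. The large subunit (21 of 23 higher, median 0.53) and the small subunit (18 of 21, median 0.52) gave like medians. Not called were Rpl39l, Rps27, Rps27l and Rps4l. After quantile normalization 24 were called higher and on the standardized values 5 (Rpl12, Rpl14, Rpl27a, Rps6 and Rps25), with medians of 0.25 and 0.07, against 22.8% and 23.0% of all probe sets called higher. Rpl39 was called lower under both. All 5 genes called higher under every scaling, and Rpl39, belong to the 9 of the 44 whose probe sets lie below the brightest 10%. In the brightest 10% 34 of 35 genes were called higher, with a median of 0.53 and an SD between genes of 0.13 on the log2 scale, and the SD between the 9 others was 0.53.

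Among the small subunit proteins, Rps6, the substrate of the S6 kinases downstream of mTORC1, gave the firmest difference. Its signal at day 4 was 584, 503 and 533 in Apcfl/fl and 263, 228 and 328 in wild-type mice, and at day 5 513, 557 and 839.8 against 256, 364 and 253. The groups did not overlap on either day. The log2 differences were 0.96 ± 0.23 (SE, adjusted p = 0.0068) and 1.07 ± 0.23 (adjusted p = 0.0019), both kept their call when any 1 of the 6 arrays was left out, and both were called after quantile normalization (0.68 and 0.73) and on the standardized values (0.77 and 0.81). At day 3 the arrays did not overlap either, but the difference of 0.47 ± 0.23 missed the threshold. A dimmer second probe set of Rps6 went the other way at day 4, at -0.43, and was not called on any day.

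Rpsa, a small subunit protein also known as a laminin receptor, had a signal of 6411, 8812 and 8774 at day 5 in Apcfl/fl and 3569, 4724 and 4144 in wild-type mice, a difference of 0.94 ± 0.22 (adjusted p = 0.0044). It was also called at day 4, at 0.66 ± 0.22, but not without any 1 of the 6 day 4 arrays. Rps19, the gene most often mutated in human Diamond-Blackfan anaemia, stood at 4105, 6281 and 4924 against 2274, 2977 and 2563 at day 5, with no overlap. It rose by 0.69 ± 0.20 at day 4 and 0.95 ± 0.20 at day 5, and its day 3 difference was 0.20 ± 0.20 with overlapping arrays. The day 4 call of Rps19 was kept in 2 of the 6 cases with 1 array left out and the day 5 calls of both genes in 6 of 6. Both genes were called at days 4 and 5 after quantile normalization and neither on the standardized values.

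Rps9, which lies near the path of the mRNA, was the only member besides Rpl12 called higher on all 3 days, with 0.73 ± 0.19, 0.59 ± 0.19 and 0.86 ± 0.19. Its 9 Apcfl/fl arrays ran from 4685 to 7573 and its 9 wild-type arrays from 2875 to 4582, so that all lay apart, although its day 4 call was kept in only 1 of the 6 cases with 1 array left out. Rps14, whose loss contributes to a human myelodysplastic syndrome, rose at day 3 by 0.69 ± 0.21 and at day 5 by 0.88 ± 0.21, with 0.55 ± 0.21 at day 4. Rps3, a protein of the mRNA entry site, and Rps18, of the head of the subunit, were called at day 5 only, at 0.90 ± 0.21 and 0.94 ± 0.23. Rps25, known for its part in internal initiation of translation, was called at day 4 (0.81 ± 0.26) and day 5 (0.90 ± 0.26). None of these 5 genes was called on days 4 or 5 after quantile normalization or on the standardized values. At day 3 Rps9 was called under both, and Rps14 after quantile normalization only. With 1 array left out, the call of Rps25 was kept in 1 of the 6 cases at day 4 and in 3 at day 5. The day 3 call of Rps14 was kept in 2 of the 6.

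The small subunit has the paralogue pair Rps27 and Rps27l and the related genes Rps4x and Rps4l. Rps27 had overlapping arrays on all 3 days, for example 86.5, 117 and 229 against 246, 124 and 145 at day 5. Its paralogue Rps27l, a p53 target in human cells, had 3505, 5608 and 3948 against 2959.7, 3969 and 3649, also overlapping, with a difference of 0.28 ± 0.22 that missed the threshold. Rps4x, the X-linked form of Rps4, was called at day 5, at 0.72 ± 0.20, a difference that was -0.01 on the standardized values. The pseudogene Rps4l varied widely between replicates, from 235 to 1023 within Apcfl/fl day 3. It stood at 126 to 1023 over the 18 small intestinal arrays and at 1.46 to 65 over the 6 colonic arrays, ranges that do not overlap, although organ, mouse line and treatment cannot be told apart here.

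In the large subunit the most stable difference was that of Rpl12, a protein at the base of the stalk. Its signal was 199.5, 316 and 252 in Apcfl/fl against 154, 112 and 85.2 in wild-type mice at day 3, 496, 360.0 and 326 against 89.3, 137 and 147 at day 4, and 289.5, 289 and 234 against 129, 129 and 185 at day 5. Every Apcfl/fl array was above every wild-type array of its day. The log2 differences were 1.04 ± 0.25 (adjusted p = 0.0088), 1.55 ± 0.25 (adjusted p = 6.6e-04) and 0.82 ± 0.25 (adjusted p = 0.019). All 3 were called on the standardized values, and the first 2 after quantile normalization and without any 1 of their arrays, whereas the day 5 call was kept in 2 of the 6 cases. Rpl14, a protein of the surface of the subunit, stood at 313, 252 and 238 against 120.3, 84.1 and 138 at day 4, a rise of 1.14 ± 0.28 that was called under each scaling but not without wild-type day 4 replicate 2. Its day 5 arrays overlapped.

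The stalk recruits the translation factors to the ribosome. Rplp0, which anchors it, had a signal of 7292, 9139 and 8256 in Apcfl/fl and 4839.9, 5761 and 5413 in wild-type mice at day 5, a called difference of 0.62 ± 0.22 that was -0.13 on the standardized values. With 1 array left out, this call of Rplp0 was kept in 1 of the 6 cases. Rplp2, which Rplp0 binds, was at 0.58 ± 0.23 on that day and not called, although its arrays did not overlap. Rpl11, which with Rpl5 and the 5S rRNA can bind Mdm2, was at 3888, 5701 and 4341 against 2231, 2956 and 2708 and rose by 0.81 ± 0.20 at day 5. On days 3 and 4 its arrays also lay apart, at 0.57 ± 0.20 and 0.53 ± 0.20, without passing the threshold. The day 5 call of Rpl11 was kept without any 1 of the 6 arrays but was lost under both other scalings. Rpl10a, a protein found on only part of the ribosomes in mouse embryonic stem cells, rose by 0.65 ± 0.20 and 0.94 ± 0.20 at days 4 and 5. Both calls were made after quantile normalization and neither on the standardized values. With 1 array left out, the day 4 call of Rpl10a was kept in 1 of the 6 cases and its day 5 call in 6.

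Rpl4, which lines the exit tunnel, had a signal of 9599, 7395 and 11100.5 against 4351, 4999 and 5267 at day 3 and rose by 0.93 ± 0.20 at day 3 and 0.86 ± 0.20 at day 5. The day 3 call was kept without any 1 of the 6 arrays and on the standardized values. Rpl6 followed it, at 0.66 ± 0.19 and 0.85 ± 0.19. Rpl22, an RNA-binding member whose paralogue Rpl22l1 can replace it, Rpl13a, which in human monocytes also silences inflammatory mRNAs, and Rpl38, which in mouse embryos is needed to translate Hox mRNAs, were called at day 5 only. Their day 5 differences were 0.72 ± 0.20, 0.68 ± 0.22 and 0.64 ± 0.21, of which the last 2 were -0.08 and -0.13 on the standardized values. Under both other scalings the day 5 calls of Rpl4, Rpl6, Rpl22, Rpl13a and Rpl38 were lost. Rpl27a was called at day 3 (1.78 ± 0.51), but its arrays overlapped, at 522, 158 and 392 against 15.7, 197 and 123, with wild-type day 3 replicate 1 at 15.7, near the 16 added before taking logs.

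Rpl39, a small protein of the exit tunnel, went against the family. Its signal was 368, 308 and 367 in Apcfl/fl and 389.6, 622 and 503 in wild-type mice at day 3, 309, 283 and 391 against 432, 378 and 436 at day 4 and 311, 344 and 229 against 371, 360.4 and 334 at day 5. All Apcfl/fl arrays were below all wild-type arrays at day 3, and on the other days 1 or more overlapped. Averaged over the days it fell by 0.37 on the log2 scale (SE 0.12, adjusted p = 0.016) and it was called lower under each scaling. Rpl39 was not called on any single day on the geometric mean scaling (adjusted p = 0.11, 0.26 and 0.34). Its testis-rich paralogue Rpl39l had signals of 8.01 to 39.4 in small intestine, close to the 16 added before taking logs, and was not called on any day.

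**Figure D3:**
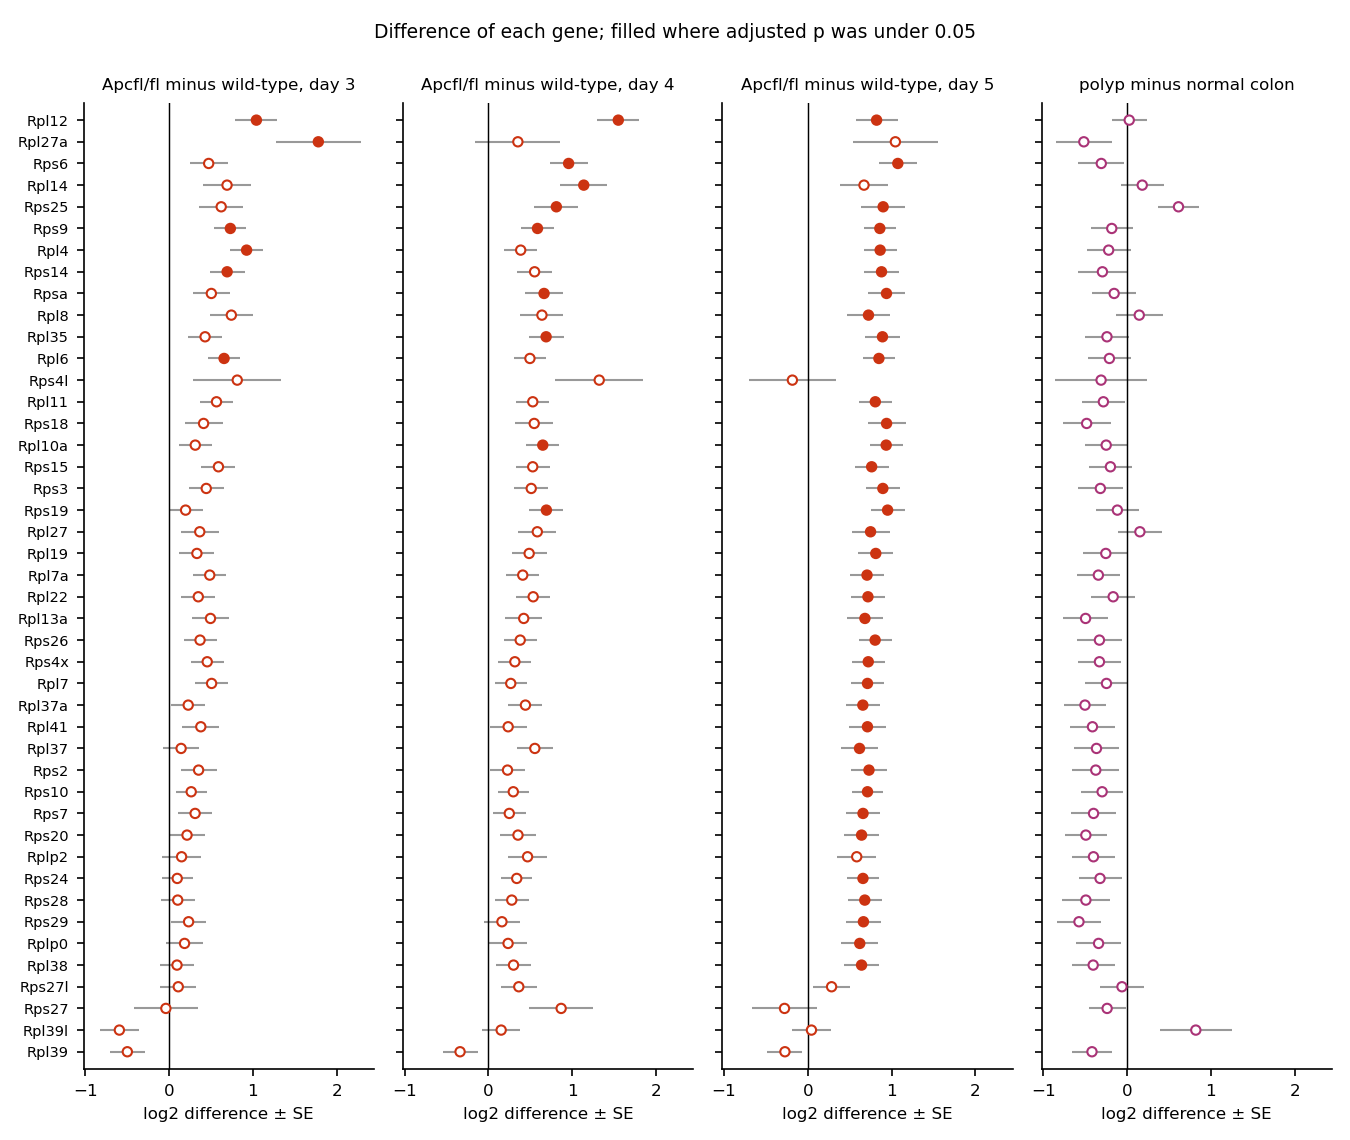
Log2 difference ± SE of each of the 44 genes on the geometric mean scaling, ordered by the mean over the 3 days and filled where the adjusted p was under 0.05. At day 5 36 genes were called higher, in polyps 0; on the standardized values the day 5 count was 2, with 20 genes below 0, and after quantile normalization 37 genes lay above 0 in polyps.

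**Figure D4:**
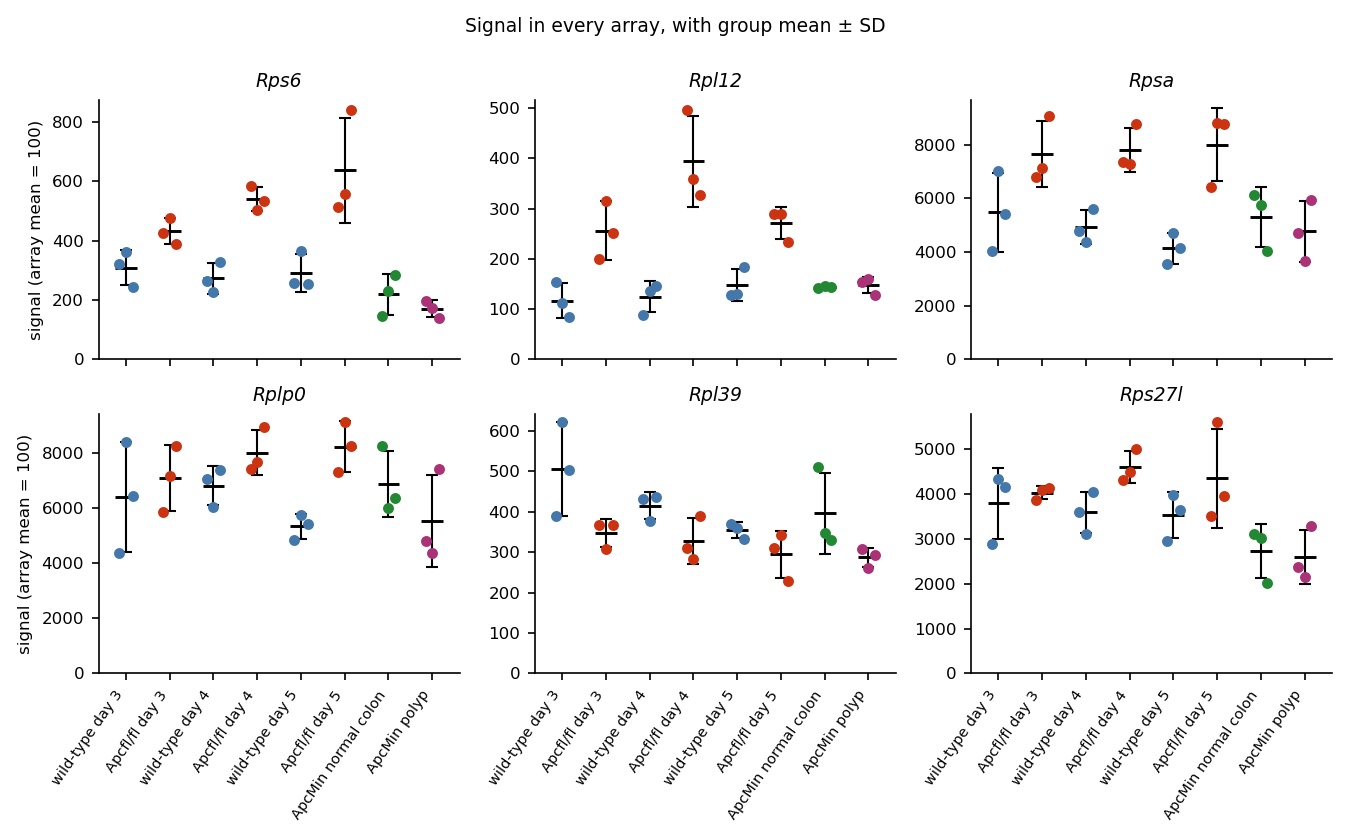
Signal of 6 genes in every array (points) with group mean and SD (bars), each panel on its own scale. Rps6, Rpl12, Rpsa and Rplp0 show the Apcfl/fl arrays above the wild-type arrays at day 5 without overlap. The day 5 arrays of Rpl39 and Rps27l overlap. All Apcfl/fl arrays of Rpl39 lie below the wild-type arrays at day 3 only.

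Which members moved apart from the others was tested after centring each array on the median of the 44 genes. In this comparison a common shift of an array cancels, but on the geometric mean scaling a difference in spread does not. Of the genes called apart below, Rps27l lies among the 35 brighter members described above. Rpl39, Rpl39l, Rps27, Rpl27a and Rpl12 lie among the 9 dimmer ones. Over the days the SD between genes was 0.53 in these 9 and 0.13 in the 35. The part of brightness in these calls was not tested. Within the family 39, 40 and 39 genes lay within 0.5 of that median on days 3, 4 and 5. Rpl39 was lower than the family on every day, by 0.91, 0.83 and 1.09 on the log2 scale (adjusted p = 0.0062, 0.0079 and 5.0e-04). These calls were kept without any 1 of the 18 arrays and after quantile normalization, but on the standardized values the day 4 difference of -0.44 was not called (adjusted p = 0.13). The other genes called apart were fewer: Rpl39l lower at days 3 and 5 (-1.01 and -0.77), Rps27 and Rps27l lower at day 5 (-1.09 and -0.53), Rpl27a higher at day 3 (1.37) and Rpl12 higher at day 4 (1.06). Of all probe sets, 22.4%, 29.6% and 55.8% were called lower than the family median on the 3 days and 2.37%, 2.74% and 2.36% higher, on the geometric mean scaling. Over the 3 days together Rpl39, Rpl39l and Rps27l were called lower than the family and Rpl12 higher, against 62.7% and 5.61% of all probe sets, and under both other scalings the call of Rpl39l was lost (adjusted p = 0.059 after quantile normalization and 0.64 on the standardized values). The call of Rpl27a was made on the standardized values but not after quantile normalization, and not without wild-type day 3 replicate 1, Apcfl/fl day 3 replicate 1 or 3, or Apcfl/fl day 4 replicate 1. The call of Rpl12 was kept under both other scalings but not without Apcfl/fl day 4 replicate 1 or wild-type day 4 replicate 1. That of Rps27l held after quantile normalization only, and those of Rpl39l and Rps27 at day 5 were not made under either. At day 3 that of Rpl39l was made after quantile normalization and not on the standardized values. The day 5 calls of Rpl39l, Rps27 and Rps27l were each lost without 2 to 4 of the arrays, all from day 5.

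**Figure D5:**
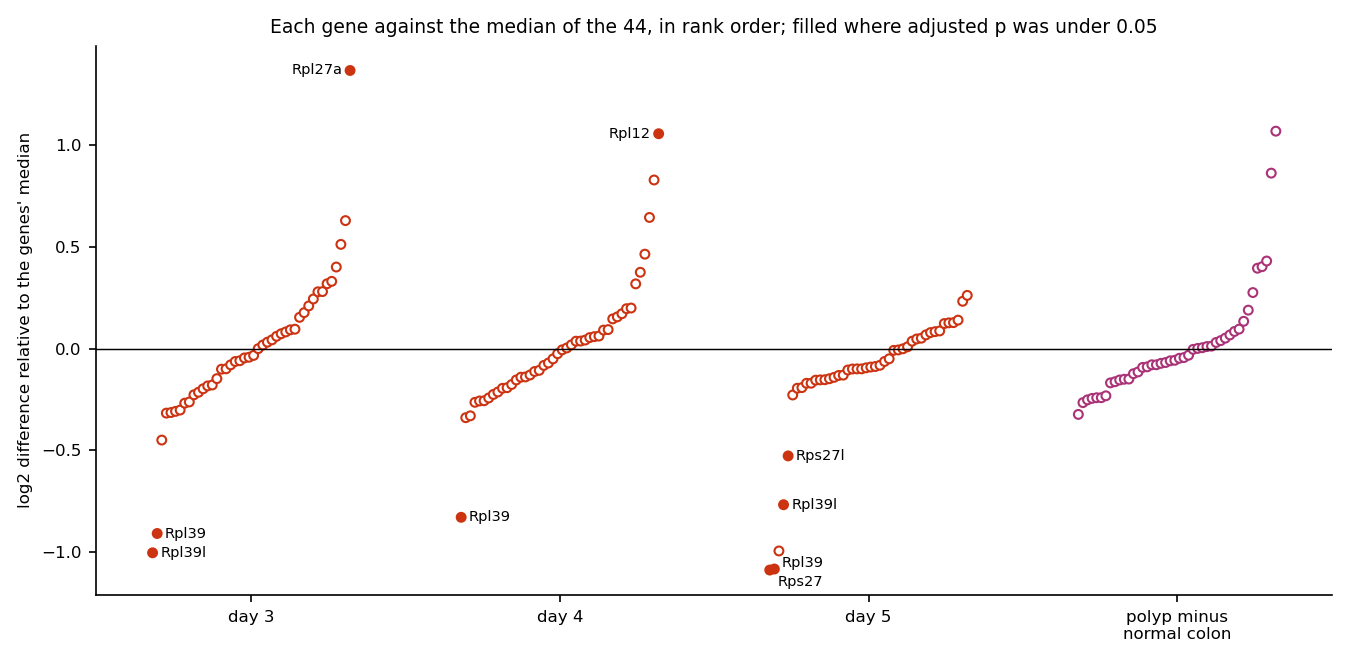
Log2 difference of each gene minus the median of the 44, with arrays centred on that median, in rank order within each comparison and filled where the adjusted p was under 0.05. Rpl39 lay at -0.91, -0.83 and -1.09 on days 3, 4 and 5, and no gene was called apart from the family in polyps.

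In the colon, polyps gave no called member, with 0 of 44 higher and 0 lower, against 7.15% and 7.4% of all probe sets (relative to the family also 0 and 0, against 5.82% and 2.36%), and at an unadjusted p under 0.05 1 gene, Rps25, was higher and 0 lower. The median was -0.30, with 38 genes below 0, on the geometric mean scaling and on the standardized values, but 0.14 with 37 genes above 0 after quantile normalization, so that the family had no settled direction here. The polyp arrays of Rplp0 (4797, 4355 and 7435) overlapped those of normal colon (8236, 6009.6 and 6381), as did those of Rps6 (196, 174 and 140.1 against 147, 229.7 and 283). Arrays lay apart for 1 gene above and 1 below, against 17.6% and 16.8% of all probe sets. The first was Rps25, with 288, 222 and 332 against 153, 214 and 165, no overlap and a difference of 0.61 ± 0.24 (adjusted p = 0.12). The second was Rpl39, lower in every polyp array (309, 262 and 292) than in every normal one (512, 347 and 331.2), at -0.42 ± 0.24 and not called (adjusted p = 0.28). On the geometric mean scaling the 95% interval of the fold was 0.524 to 1.19 for Rplp0, whose log2 difference turned from -0.34 to 0.13 after quantile normalization, and 1.05 to 2.22 for Rps25. The label of normal colon replicate 1 is built differently from those of the other 5 colonic arrays, for a reason that is not given. Without that array 0 genes were called and the median was -0.16.

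The polyp difference was then tested against the mean of the 3 daily differences, with which it shares no array. On the geometric mean scaling 24.7% of the probe sets in the brightest 10% were called lower in this contrast. Of the 44 genes 31 were called lower and 0 higher, against 9.15% and 6.38% of all probe sets, with a median of -0.84. The count was 2 after quantile normalization and 2 on the standardized values, the genes Rps6 and Rpl12 in both, against 7.49% and 7.55% of all probe sets. It also fell to 3 without ApcMin polyp replicate 2, to 5 without normal colon replicate 1, to 14 without normal colon replicate 2 and to 17 without polyp replicate 1. Rps6 differed by -1.14 (adjusted p = 0.0072) and Rpl12 by -1.11 (adjusted p = 0.0068). Organ, mouse line, days against established growth, and drug treatment all change with this contrast and cannot be told apart.

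Other probe sets of the same genes were checked. Of the 51 not used above, 47, 47 and 48 had the sign of the one used on days 3, 4 and 5, and 33 in polyps. Many of the probe sets used carry an x, s or a suffix in their name. Probe sets without such a suffix exist for 23 of the genes, and with these 11 genes were called higher at day 5, against 36 of 44 above. Of all 95 probe sets, 16, 29 and 68 were called higher on the days, and 1 lower on each. Over the whole array 9.79%, 12.5% and 17.9% were called higher and 7.33%, 8.73% and 11.6% lower. In the brightest 10% the shares called higher were 17.4%, 20.4% and 35.2%. A further 108 probe sets are assigned to a gene of the family together with other genes, so no gene can be named from them. Of these, 20, 33 and 82 were called higher on days 3, 4 and 5, against the same shares, with medians of 0.38, 0.46 and 0.74. In polyps 1 was called higher, against 7.15% of all probe sets, with a median of -0.23. All of this is on the geometric mean scaling.

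Genes that make ribosomes or share the TOP element were counted next, on lists chosen with results of these data known. For these and the lists that follow, the shares of all probe sets called higher were 9.79%, 12.5% and 17.9% on days 3, 4 and 5. They were 26.2% averaged over the days and 7.15% in polyps. The shares called lower were 7.33%, 8.73%, 11.6%, 22.8% and 7.4% in the same order. Of 21 other TOP mRNAs, mainly translation factors, 9, 15 and 19 were called higher on days 3, 4 and 5, 0 lower, and 21 averaged over the days. The average count was 15 after quantile normalization and 11 on the standardized values. Averaged over the days, Npm1, a nucleolar chaperone, rose by 1.36 ± 0.13 (SE), Gas5, a TOP transcript that hosts small nucleolar RNAs, by 1.44 ± 0.19 and Snhg1, another such host transcript, by 1.32 ± 0.14. Of 12 chaperones and assembly factors of ribosomal proteins, 7, 11 and 12 were called higher on the 3 days, and 11 on average under both other scalings. Rrs1 and Rpf2, which load the 5S particle, rose by 1.36 ± 0.15 and 1.26 ± 0.15 over the days. Of 11 genes of RNA polymerase I transcription, 6, 8 and 10 were called, and 9 on average under both other scalings, with Polr1c at 1.45 ± 0.14. The medians over the days of the chaperone and polymerase I lists were 0.99 and 1.04, against 0.53 for the 44 ribosomal proteins and about 0 for all probe sets. Brightness was not matched between these lists and the family. Within the family the median was 0.53 for the 35 genes in the brightest 10% and 0.78 for the 9 below it.

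Among 12 regulators of ribosomal protein mRNAs, 2, 4 and 7 were called higher on days 3, 4 and 5, and over the days 8 higher and 1 lower, Rps6kb2, or 6 higher and 2 lower after quantile normalization and 6 and 1 on the standardized values. Myc rose by 2.14 ± 0.16 over the days and by 1.53 ± 0.24 in polyps (adjusted p = 4.1e-08 and 0.0024). Larp1 and Cdkn1a are named after their values were seen. Larp1 rose by 0.67 ± 0.12 over the days and was at 0.06 ± 0.22 in polyps. Of the 7 genes of the Mdm2 and p53 arm, 3 were higher and 1 lower over the days, 1 and 0 after quantile normalization and 2 and 2 on the standardized values, with Cdkn1a, the main cell cycle target of p53, at -0.07 ± 0.17. Mdm2 rose at day 3 by 1.44 ± 0.23 (adjusted p = 6.5e-04), and was at 0.15 ± 0.23 at day 4 and 0.07 ± 0.23 at day 5, neither called. In polyps 3 of the 12 chaperones were higher (Grwd1, Ipo5 and Rrs1), 1 of the 11 polymerase I genes (Polr1e), and of the other TOP mRNAs 0 were higher and 1, Hint1, lower, with 4 higher and 0 lower after quantile normalization and 1 and 0 on the standardized values. Of 76 mitochondrial ribosomal proteins, which are not TOP mRNAs, 10, 25 and 7 were higher on the 3 days, against 9.79%, 12.5% and 17.9% of all probe sets. On these days 0, 0 and 1 were lower, and at day 5 8 were lower and 2 higher under both other scalings. Of 12 housekeeping genes, 7 were called higher over the days and 0 lower with a median of 0.31, which was 0.05 after quantile normalization and -0.09 on the standardized values.

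Close relatives that the symbol rule left out were looked at beside the family. Rps3a1, a core protein of the small subunit, Rpl22l1, the paralogue of Rpl22, and Rpl7l1, which assists in making the large subunit, were called higher over the days, by 0.61 ± 0.11, 0.67 ± 0.12 and 0.67 ± 0.16. All 3 were called after quantile normalization and 2 on the standardized values. Fau, a ribosomal protein made as a fusion with a ubiquitin-like protein, was at 0.26 ± 0.13 and not called. Of these 4 genes, 0 were called in polyps, where Rpl7l1 was at 0.53 ± 0.22.

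The cell type makeup of the samples also differed between the groups, and in whole tissue fewer cells of a type and less RNA per cell cannot be told apart. The summed signal of 7 proliferation genes was 10330 to 16144 over the Apcfl/fl arrays and 5111 to 8131 over the wild-type arrays, and that of 6 stem cell genes 9965 to 12871 and 3509 to 5323, with no overlap. That of 9 enterocyte genes at day 5, when 4 of the 9 were called lower, ran from 39852 to 49109 in wild-type and from 16363 to 40401 in Apcfl/fl arrays, and 9 of 9 were called lower at day 5 under both other scalings. Of 9 lymphocyte genes, 7 were lower at day 5, or 8 under both other scalings, with sums of 3058 to 6304 against 7827 to 9019. Of 8 smooth muscle genes 0 were called on any of the days, with 1 lower at day 4 on the standardized values, and 8 of 8 were lower in polyps, with sums of 2179 to 4734 against 13733 to 19399, as were 5 of 5 colonocyte genes, with 575 to 1390 against 18367 to 25433. Of 6 macrophage genes 2 were lower at day 5 and 3 higher in polyps, and of 6 fibroblast genes 1 was higher at day 5, or 0 higher and 2 lower under both other scalings, with 2 higher and 1 lower in polyps. Of 8 genes of epithelium as a whole, 3 were higher at day 5 and 2 lower in polyps. The small intestinal groups were marked by enterocyte sums of 16363 or more, against 748 to 2526 in the colonic arrays. The part of these cell types in the ribosomal protein values was not tested.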

How the data were processed

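RNA was extracted with Trizol, cleaned up on columns, labelled with the Enzo BioArray kit and hybridised to 24 arrays. For the probe set summary software, a name was not given in the sources used here. The authors deposited 1 score per probe set and array, with a mean of about 0 and an SD of about 1 in each array, and both deposited tables held the same values in 842640 of 842640 cells. The spacing of the lowest values showed each score to be a natural log of a signal, standardized per array, and every value under a signal of 500 came out as a whole step of 0.1. The signal was recovered from these steps, scaled to a geometric mean of 100 per array and taken as log2(signal + 16). The planned test assumed linear or log signals and was run on the recovered ones.

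Of 35110 probe sets, 44 controls were left out. The others were fitted with limma 3.58.1 in R 4.3.3: the 18 small intestinal arrays in 1 fit, the 6 colonic arrays in another and all 24 for the contrast of polyps with the mean of the days. The scripts were tested on simulated data with known changes. Among the 35066, 28153 carried 1 gene symbol in the GEO platform annotation, 769 several and 6144 none. Each gene is given by its probe set with the highest mean level. No count lies behind an array signal, so precision is limited by 3 arrays per group; an exact permutation test of 3 against 3 cannot go below p = 0.1. "Relative" values centre each array on the median of the 44 genes.

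The members, lists and tests were chosen with earlier results of these data known. Named were genes of set roles (stalk, 5S particle, S6 kinase substrate, laminin receptor, Diamond-Blackfan gene, paralogues and others), the 5 with the largest called and not overlapping differences in each direction per comparison, the 3 largest relative ones and up to 4 genes of each other list. Rps3a1 was read as outside the symbol rule. Alternatives varied the scaling, offset, filter, variance model, arrays, probe set and threshold. Python 3.11.15 with pandas 2.3.3, numpy 2.4.6 and matplotlib 3.10.9 did the rest.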

Additional observations from a re-analysis of the deposited data

Results flagged for a closer look

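The polyp difference and the mean of the 3 daily differences, each against its own controls, were tested against each other. The difference was called lower in polyps for 31 of the 44 genes, against 9.15% of all probe sets and 24.7% of the brightest 10%. The count of genes was 2 after quantile normalization and 2 on the standardized values, against 7.49% and 7.55% of all probe sets. It was 3 without ApcMin polyp replicate 2. Among the small subunit genes the polyp difference minus the mean of the days was -1.14 for Rps6, -1.12 for Rps18, -1.003 for Rps14, -0.94 for Rps3, -0.91 for Rps9, -0.86 for Rpsa, -0.83 for Rps4x and -0.73 for Rps19. Among those of the large subunit it was -1.11 for Rpl12, -1.03 for Rpl13a, -0.94 for Rpl4, -0.92 for Rpl11, -0.88 for Rpl10a, -0.88 for Rpl6 and -0.75 for Rpl38. All are on the log2(signal + 16) scale and passed an adjusted p of 0.05 in limma, and Rps6 and Rpl12 passed it under both other scalings. The groups of 3 arrays are too small for a test of single outlying arrays.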

How the results depend on the processing

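After quantile normalization 1 gene was lower at day 3 and 1 at day 5, and 4 were higher at day 5 and 24 on average over the days. The family medians were then 0.32 at day 4, 0.26 at day 5, 0.25 over the days and 0.14 in polyps. The contrast of polyps with the mean of the days kept 2 lower genes with a median of -0.12. The medians of the differences between days were -0.0467 for day 5 against day 4 and 0.0841 for day 5 against day 3, and those of the wild-type groups 0.0764 for day 5 against day 3 and 0.0814 for day 5 against day 4, in place of -0.22 and -0.25. On the standardized values 3, 2 and 5 genes were higher at day 4, day 5 and over the days, with medians of 0.16, -0.0483, 0.0609 and 0.0711 at day 3, day 4, day 5 and over the days. The polyp contrast kept 2 lower genes with a median of -0.35, and the differences between days had medians of -0.18 for day 4 against day 3, 0.0931 for day 5 against day 4 and -0.10 for day 5 against day 3. Day 5 differences of Rpl13a, Rpl38, Rplp0 and Rps4x were -0.077, -0.126, -0.135 and -0.0126 on that scale, which by its construction divides out the spread of the array. Centring on the median gave 10 higher genes at day 3.

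An offset of 64 gave 11 higher genes at day 3 and 17 at day 4, and an offset of 1 gave 1 lower gene at day 3. Leaving out dim probe sets gave 10 and 16 on these days, averaging each gene's probe sets 11 and 16, fits on only the 6 arrays of a day 0 and 22, and array weights 3 and 26. With array weights, polyps had 2 higher genes and 1 lower, and the polyp contrast 1 higher. Probe sets without an x, s or a suffix exist for 23 of the genes; they gave medians of 0.59 at day 3, 0.81 at day 4 and 0.0254 in polyps, 11 higher genes at day 5, 17 over the days and 1 in polyps, and 7 lower ones in the polyp contrast. Requiring a log2 difference of at least 0.5 as well left 24 higher and 0 lower genes over the days. The cause of these changes was not tested, other than the smaller number of genes or arrays where a setting has one. Trended, robust variances kept all counts within 1.5 times.

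Relative to the family median, settings added after seeing the data gave 2 higher genes at day 3 and 2 over the days after quantile normalization, with 2 lower at day 5 and 6 lower over the days. On the standardized values 2, 3, 1 and 5 were higher at day 3, day 4, day 5 and over the days, and 1, 0 and 1 lower at days 3, 4 and 5.

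With 1 array left out in turn, the counts of higher genes ran from 2 to 8 at day 3, 2 to 12 at day 4, 18 to 38 at day 5 and 38 to 40 over the days, and of lower genes from 0 to 1 at day 3. The polyp contrast had 3 to 34 lower and 0 to 1 higher genes. Relative to the family, higher genes ran from 0 to 2 at day 3, 0 to 2 at day 4, 1 to 2 over the days and 0 to 1 in polyps, and lower genes from 2 to 5 at day 5. Over all settings run for the genes named, 987 values kept their call or stayed uncalled, 93 lost the call, 16 gained it and 4 turned. The 4 were called differences at day 5 that fell below 0 on the standardized values. Changes of sign of uncalled differences were not counted as turned. No paired analysis was possible because the labels give no number or animal that links arrays of different groups: the methods speak of polyps paired with normal colon, but the 6 colonic arrays carry 6 different identifiers. Dim genes such as Rpl39l have signals near the offset and their differences are the least certain.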
